A study of Mus musculus with 11 samples.

Results

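Heat shock proteins and J-domain chaperones were followed in KP1, a mouse small cell lung cancer (SCLC) cell line, after ionizing radiation. The members are the protein-coding genes of the GENCODE M21 annotation whose symbols begin with Hspa, Hspb, Hspd, Hspe, Hsph, Hsp90, Dnaja, Dnajb or Dnajc, which gave 74 of 35056 genes. KP1 is a single line of Rb and p53 mutant cells grown in suspension culture. Bulk RNA sequencing covered 2 libraries of untreated cells (control replicates 2 and 3) and 3 libraries of irradiated cells (replicates 1, 2 and 3), which were collected 24 h after 5 Gy. The comparison of irradiated with control cells answers which chaperone transcripts were higher or lower a day after the dose. The labels do not say whether the libraries of a group came from separate cultures, so the p-values measure the spread between these libraries, which may be technical. In RNA from a whole culture, fewer cells that express a gene and less RNA per cell cannot be told apart.

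Molecular chaperones bind unfolded proteins and keep them from aggregating. Small heat shock proteins hold unfolded chains without using ATP. HSP70 proteins then bind and release the chains in a cycle that J-domain proteins start and nucleotide exchange factors end, and HSP90 proteins act on later folding states of kinases, receptors and other clients. The cytosol, the endoplasmic reticulum (ER) and the mitochondria each hold their own set. Heat shock factor 1 induces the stress-responsive cytosolic genes through heat shock elements, while the unfolded protein response induces the ER set through ER stress elements.

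The estimated reads summed to between 21185956 and 31036317 per library. The average read came from a transcript of 5463 and 4729 bases in the control libraries and of 3625 to 3998 bases in the irradiated ones, so long transcripts took a smaller part of the irradiated libraries. All 6 markers of KP1 listed for checking the label were present at 46.7 TPM or more in every library. Of the 9 markers listed for other cells, the defining macrophage genes Adgre1 and Csf1r had 0 to 2 reads and the endothelial gene Cdh5 had 0 to 2 reads per library, Col3a1 had 0, and Ptprc, Cd68, Col1a1 and Pecam1 had 1 to 51. Pdgfra, the remaining one, stood at 36.6 to 56.7 TPM. Levels below are CPM (counts divided by library size and set to a common scale) adjusted by TMM, edgeR's normalization between libraries, unless TPM is named. TPM is Salmon's abundance per transcript length, set to the same total in each library. The quasi-likelihood test of edgeR gave the p-values, which were adjusted by the method of Benjamini and Hochberg over the 14106 genes that passed its filter on low counts, and 66 of the 74 members passed that filter.

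At an adjusted p under 0.05, 8 of the 66 tested members rose and 2 fell. Over all 14106 genes, 12.7% rose and 13.0% fell at this threshold, and the 12.1% of members that rose are near that background. The 8 that rose were Hspb1, Dnajc12, Hspe1, Hspbp1, Dnajc9, Dnajb9, Dnajb1 and Dnajc8, and the 2 that fell were Dnajb14 and Dnajc13. Past an absolute log2 fold change of 1.5 as well, 2 members rose (Hspb1 and Dnajc12) and 0 fell, against 1.63% and 1.9% of all genes. At an unadjusted p under 0.05, 18 members stood higher and 6 lower, beside 20.9% and 20.1% of all genes. All 3 irradiated libraries lay above both controls in 27 members and below both in 10, beside 30.1% above and 29.3% below over all genes. The median log2 fold change was 0.22 over the tested members and 0.02 over all genes tested. DESeq2 called 16 members higher and 4 lower, beside 16.1% and 14.6% of the genes it tested. Without control replicate 2 all 10 calls were lost, and 0.65% of all genes tested were called higher and 1.2% lower. Without control replicate 3 there were 12 members higher and 4 lower, beside 15.1% and 13.4%. Without irradiated replicate 1 there were 3 higher and 3 lower, beside 5.95% and 6.5%. Without irradiated replicate 2 there were 2 higher and 2 lower, beside 4.91% and 5.98%.

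**Figure D1:**
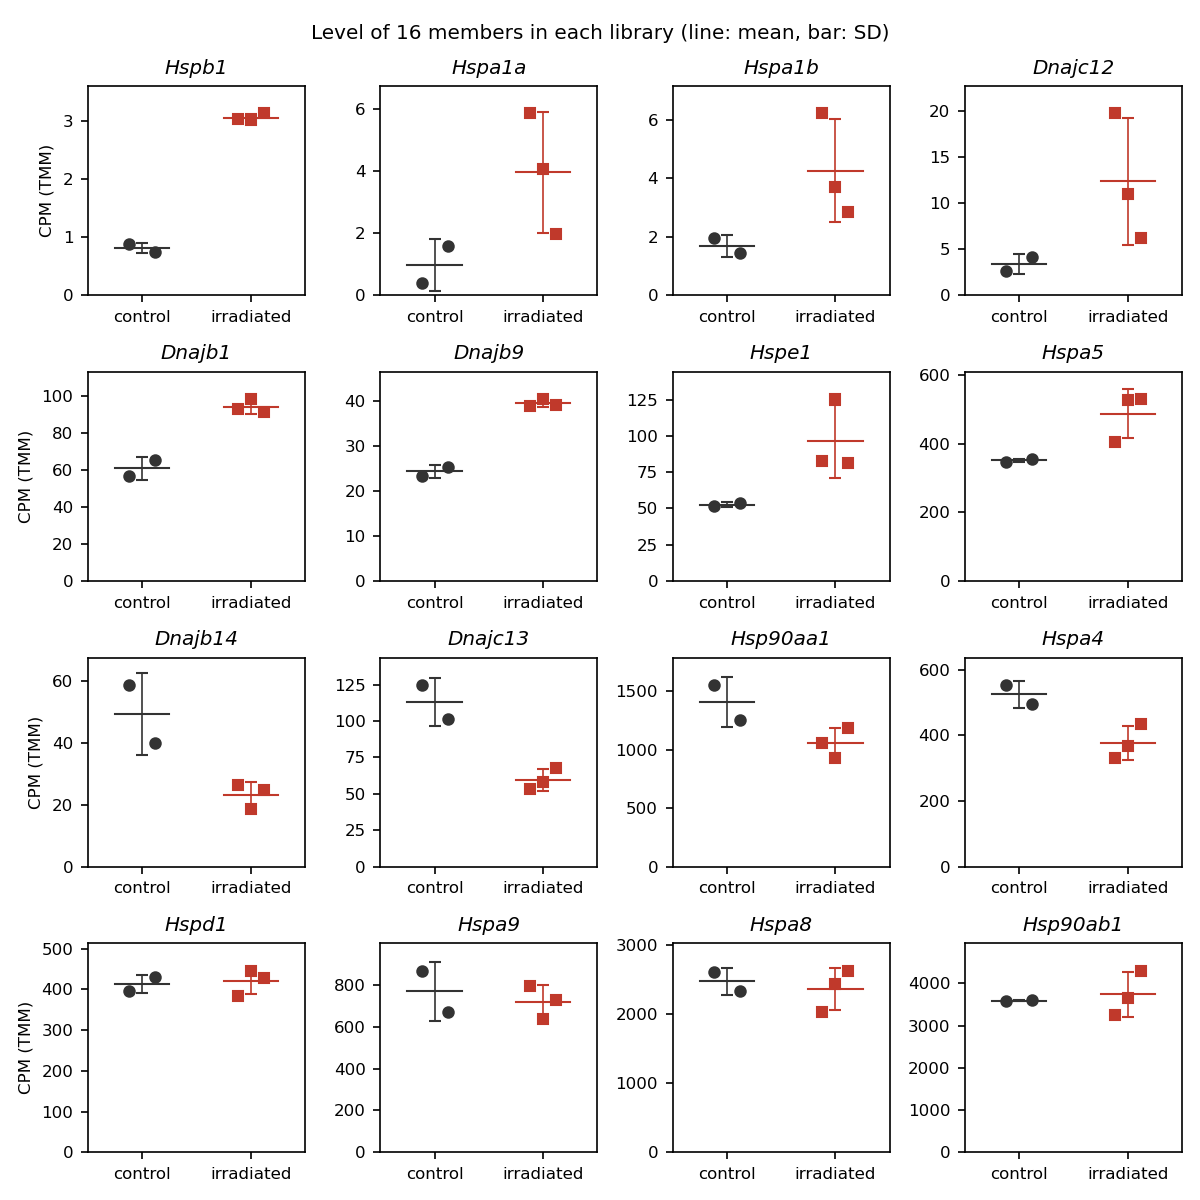
TMM-scaled CPM (linear axes from 0) of 16 members, with 1 point per library, a line at the group mean and a bar of 1 SD (2 control and 3 irradiated libraries). The irradiated libraries of Hspb1 sit between 3.01 and 3.13 CPM above controls at 0.75 and 0.88 CPM, those of Dnajb14 and Dnajc13 sit below both controls, and those of Hspd1, Hspa9, Hspa8 and Hsp90ab1 overlap them.

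Of the 7 small heat shock proteins, Hspb1 rose and the others gave no call. Hspb1 (HSP27 in human cells, a holdase that also binds actin) lies on GRCm38 chr5:135887919-135889563 on the plus strand. It stood at 0.88 and 0.75 CPM in control replicates 2 and 3 and at 3.03, 3.01 and 3.13 CPM in irradiated replicates 1 to 3. The irradiated libraries were all above the controls and differed little among themselves. The counts behind these levels were small, 25 and 20 reads in the controls and 66 to 86 in the irradiated libraries. The log2 fold change was 1.90 (95% interval 0.88 to 2.93, adjusted p = 0.0205), and it was 1.17 (adjusted p = 0.133) with an offset for transcript length. Per transcript length, Hspb1 was a minor member at 2.21 and 2.49 TPM in controls and 7.13 to 8.04 TPM after irradiation.

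Hspb8, which works with the co-chaperone Bag3 in the removal of aggregated proteins, stood at 18.1 and 19.4 CPM in controls and at 23.3, 28.1 and 22.7 CPM in irradiated replicates 1, 2 and 3 (log2 fold change 0.40, adjusted p = 0.140). The irradiated libraries lay above both controls, but the difference did not pass the test. Hspb6 (log2 fold change 0.06, adjusted p = 0.846) and Hspb2 (0.41, adjusted p = 0.720) overlapped between the groups. Hspb2 held 6 to 15 reads per library and shares 252 exon bases with Cryab on the opposite strand. Hspb3, Hspb7 and Hspb9, known from muscle, heart and testis, had 0 to 2 reads in each library, under the floor of 3 reads, and were not tested.

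The promoter of Hspb1 and those of the inducible pair Hspa1a and Hspa1b are shown because these genes had the largest positive fold changes of the stress-responsive classes. Each sequence holds the 250 bases before the RefSeq start (GRCm38.p6), read 5′ to 3′ on the strand of the gene. Capitals mark GAANNTTC, a pair of facing heat shock units that reads the same on both strands. The search also took TTCNNGAA, the pair in the other arrangement, which likewise reads the same on both strands.
Hspb1, chr5:135887669-135887918, plus strand: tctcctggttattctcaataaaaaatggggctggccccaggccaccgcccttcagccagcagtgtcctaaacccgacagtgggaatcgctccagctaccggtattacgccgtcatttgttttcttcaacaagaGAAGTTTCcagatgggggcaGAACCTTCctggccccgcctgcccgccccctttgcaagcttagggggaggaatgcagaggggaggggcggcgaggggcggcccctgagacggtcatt
Hspa1a, chr17:34972157-34972406, minus strand: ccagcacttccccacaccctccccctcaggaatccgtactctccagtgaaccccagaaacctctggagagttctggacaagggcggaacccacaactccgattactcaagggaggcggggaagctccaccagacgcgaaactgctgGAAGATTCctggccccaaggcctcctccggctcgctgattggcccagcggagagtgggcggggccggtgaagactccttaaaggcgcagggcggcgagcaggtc
Hspa1b, chr17:34959239-34959488, minus strand: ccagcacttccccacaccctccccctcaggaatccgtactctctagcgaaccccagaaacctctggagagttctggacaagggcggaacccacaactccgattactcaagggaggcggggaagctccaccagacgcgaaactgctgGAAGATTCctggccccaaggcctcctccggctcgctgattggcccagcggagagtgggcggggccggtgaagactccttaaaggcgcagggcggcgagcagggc

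Hspb1 held this pair of units at −117 and again at −97, counted from the start, and Hspa1a and Hspa1b held it at −104 in promoters that differ at 3 of 250 bases. Promoter windows of 300 bases (250 before and 50 after the start) matched 60 of the 74 members in the RefSeq table. The pair of units, in either arrangement, was found in 16 of these 60 (26.7%) and in 17.0% of all genes with a promoter. Among the 16 were 4 of 6 small and 3 of 4 inducible members. The small ones were Hspb1, which rose, Hspb6 and Hspb8, which gave no call, and Hspb3, which was not tested. The inducible ones were Hspa1a, Hspa1b and Hsph1, and none of them passed the test. The longer heat shock element GAANNTTCNNGAA (other strand TTCNNGAANNTTC), which contains the pair, was found in 4 of 60 members (Dnajb6, Hspd1, Hspe1 and Hsph1, 6.67%) and in 0.662% of all genes. Of these 4, Hspe1 rose and the other 3 gave no call. A match describes letters in the window and is not a measured binding site.

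Of the 5 stress-inducible cytosolic chaperones, Dnajb1 rose, Hspa1a and Hspa1b stood higher without passing the test, and Hsph1 and Hsp90aa1 gave no call. Dnajb1, the main J-domain partner of inducible HSP70 (chr8:83608193-83612653, plus strand), stood at 56.7 and 65.5 CPM in controls and at 93.1, 98.6 and 91.3 CPM in irradiated replicates 1 to 3. The 3 irradiated values were close together and above both controls. Its log2 fold change was 0.63 (95% interval 0.29 to 0.96, adjusted p = 0.0200), and it was 0.68 with the length offset (adjusted p = 0.0300).

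Hspa1a, an inducible HSP70, stood at 0.39 and 1.58 CPM in controls and at 5.85, 4.07 and 1.97 CPM in irradiated replicates 1 to 3 (log2 fold change 2.01, 95% interval 0.41 to 3.62, adjusted p = 0.0660). Hspa1b, its neighbour on chromosome 17, stood at 1.96 and 1.43 CPM in controls and at 6.21, 3.70 and 2.84 CPM after irradiation (log2 fold change 1.32, 95% interval 0.27 to 2.38, adjusted p = 0.0659). In both genes the irradiated libraries lay above both controls, with replicate 1 highest and replicate 3 lowest. Their transcripts agree at 99.2% of 2201 aligned bases, so how reads were divided between them is uncertain. Counted as 1 gene, a choice made after the data were seen, they stood at 2.35 and 3.00 CPM in controls and at 12.1, 7.77 and 4.81 CPM after irradiation. That sum rose 3.07-fold (log2 fold change 1.62, 95% interval 0.64 to 2.59, adjusted p = 0.0286). The call was lost with the length offset (1.67, adjusted p = 0.0544), without control replicate 2 (adjusted p = 0.134), without irradiated replicate 1 (0.0694) and without irradiated replicate 2 (0.0634). Even so the pair remained scarce, at 0.25 to 3.75 TPM for either gene in any library.

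Hsp90aa1, the stress-inducible cytosolic HSP90 (chr12:110690605-110702728, minus strand), was the most abundant of this class. It stood at 1554 and 1253 CPM in controls and at 1055, 926 and 1181 CPM in irradiated replicates 1 to 3. The irradiated libraries were all below the controls, with a log2 fold change of −0.41 (95% interval −0.82 to −0.004, adjusted p = 0.119), which did not pass the test. Hsph1, an HSP110 nucleotide exchange factor, stood at 142 and 184 CPM in controls and overlapped them at 126 to 151 CPM after irradiation (log2 fold change −0.24, adjusted p = 0.316). The fold changes of the 5 inducible members ran from −0.41 to 2.01, with a median of 0.63.

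**Figure D2:**
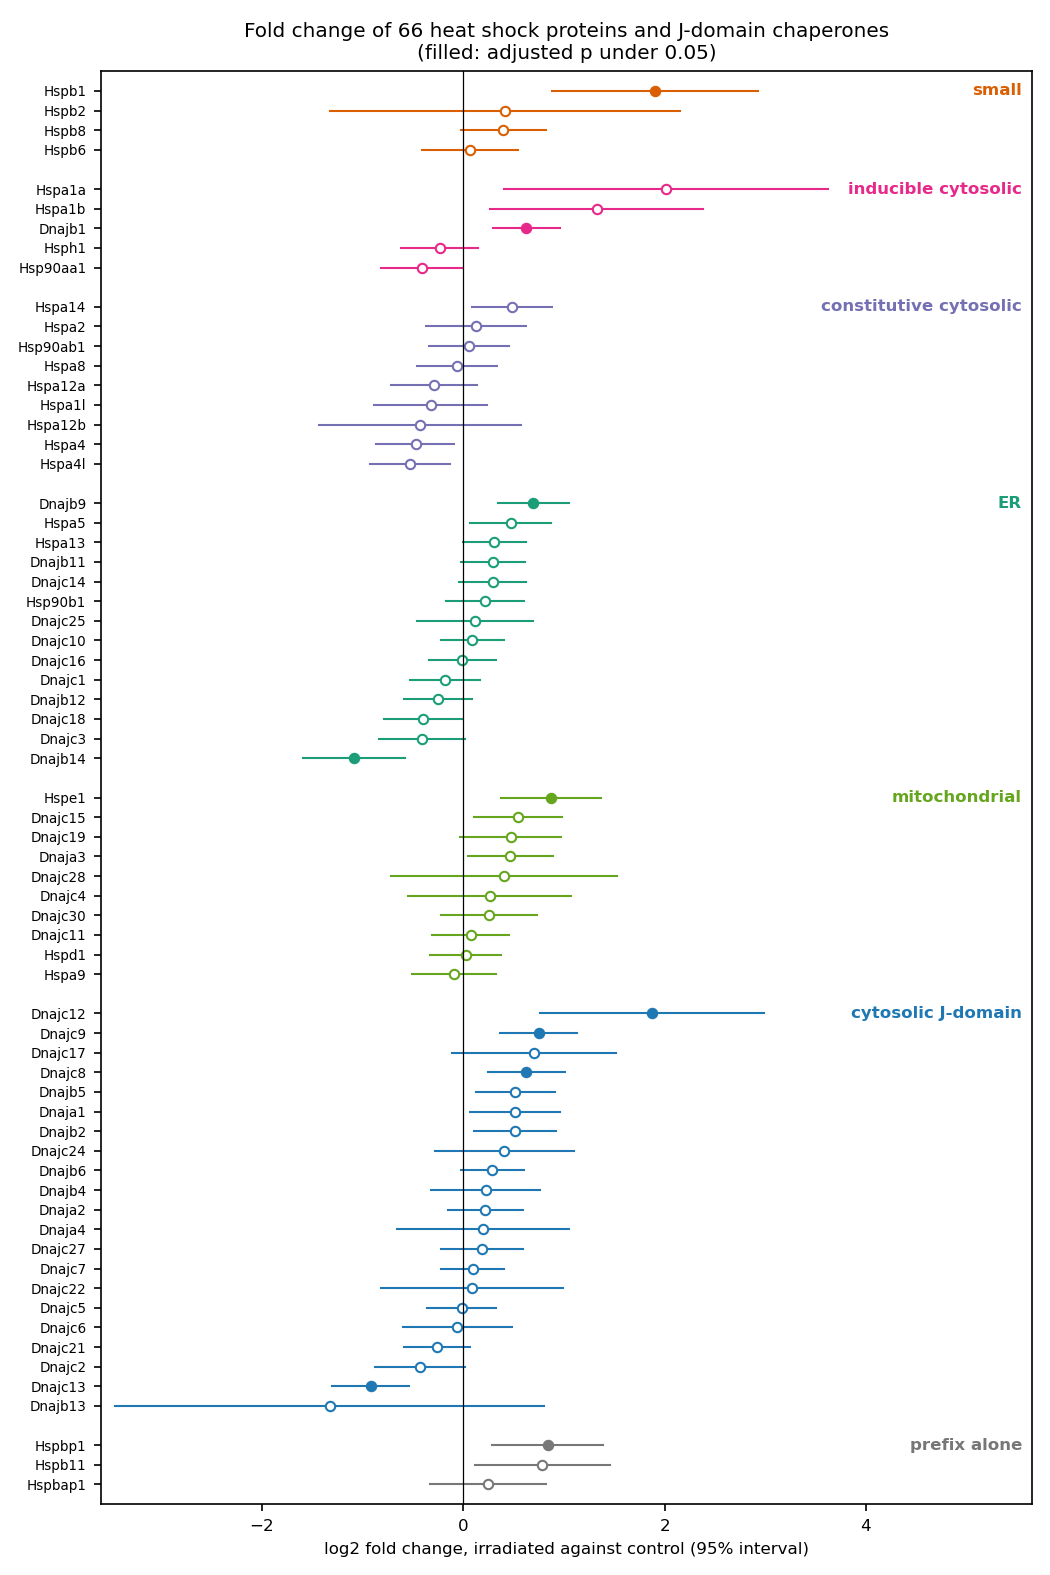
Log2 fold change of irradiated against control cells for the 66 tested members (points) with 95% intervals (lines), grouped and coloured by class, filled where the adjusted p is under 0.05. Hspa1a (2.01) and Hspb1 (1.90) lie farthest to the right, Dnajb13 (−1.33) farthest to the left with an interval that spans 0, and the constitutive class has no filled point.

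Of the 9 constitutive cytosolic members, 0 rose and 0 fell, while 6 of 9 had a fold change below 0 and their median was −0.29. Hsp90ab1 and Hspa8, the constitutive cytosolic HSP90 and HSP70, were the most abundant of all members by mean TPM. Hsp90ab1 stood at 3579 and 3606 CPM in controls and at 3262, 3662 and 4306 CPM in irradiated replicates 1 to 3 (log2 fold change 0.06, 95% interval −0.34 to 0.46). Hspa8 stood at 2614 and 2339 CPM in controls and at 2031, 2430 and 2631 CPM after irradiation (log2 fold change −0.07, 95% interval −0.47 to 0.33). The groups overlapped in both genes, and with adjusted p-values of 0.828 and 0.806 neither passed the test. Near-identical processed pseudogenes of Hspa8 held at most 42 reads in any library.

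The HSP110-type exchange factors Hspa4 and Hspa4l stood lower in all irradiated libraries. Hspa4 stood at 554 and 496 CPM in controls and at 331, 368 and 433 CPM in irradiated replicates 1 to 3 (log2 fold change −0.48, adjusted p = 0.0700). Hspa4l stood at 97.6 and 93.7 CPM in controls and at 78.6, 55.8 and 64.1 CPM (log2 fold change −0.53, adjusted p = 0.0535). Neither passed the test, and with the length offset they were at −0.12 and −0.18. Hspa14, a ribosome-bound HSP70, was at 0.48 (adjusted p = 0.0717), and Hspa1l, Hspa2, Hspa12a and Hspa12b lay between −0.43 and 0.13 with overlapping groups.

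Of the 14 ER members, Dnajb9 rose and Dnajb14 fell, and the major ER chaperones gave no call. Dnajb9 (ERdj4), a J-domain partner of the ER HSP70 and a target of the unfolded protein response, lies on chr12:44205559-44210326, minus strand. It stood at 23.4 and 25.4 CPM in controls and at 38.9, 40.4 and 39.1 CPM in irradiated replicates 1 to 3. The groups were well apart and each was tight. The log2 fold change was 0.70 (95% interval 0.34 to 1.05, adjusted p = 0.0166), and 0.60 (adjusted p = 0.0409) with the length offset. Dnajb14, an ER membrane J-domain protein (chr3:137867675-137916557, plus strand), stood at 58.8 and 39.9 CPM in controls and at 26.3, 18.7 and 24.7 CPM after irradiation. All irradiated libraries were lower, and the log2 fold change was −1.09 (95% interval −1.59 to −0.58, adjusted p = 0.0131). At 9051 bases its transcript is the longest of the members tested, and with the length offset its log2 fold change was −0.09 (adjusted p = 0.714).

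Hspa5 (BiP, the ER HSP70) stood at 348 and 355 CPM in controls and at 404, 527 and 530 CPM in irradiated replicates 1 to 3. The irradiated libraries lay above both controls, but the log2 fold change of 0.47 (95% interval 0.07 to 0.87, adjusted p = 0.0787) did not pass the test. Hsp90b1 (GRP94, the ER HSP90) overlapped at 397 and 479 CPM in controls and 453 to 544 CPM after irradiation (log2 fold change 0.21, adjusted p = 0.369). Dnajb11 (ERdj3), a partner of Hspa5, was at 0.29 (adjusted p = 0.148), and Dnajc3, which restrains the kinase PERK, was at −0.41 (adjusted p = 0.134) with 80 to 105 CPM in controls and 60 to 81 CPM after irradiation. With the length offset Dnajc3 turned to 0.12. The median over the 14 was 0.10, and the remaining 8 members lay between −0.41 and 0.31, of which Hspa13 (0.62, adjusted p = 0.0399) and Dnajc16 (0.62, adjusted p = 0.0456) were called with the length offset and under none of the other settings run.

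The ER stress element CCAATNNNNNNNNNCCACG (other strand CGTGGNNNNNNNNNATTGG) was found in 3 of 60 members, Hspa5, Hsp90b1 and Dnajc3, and in 0.137% of all genes with a promoter. These 3 are shown with the element in capitals since their fold changes were 0.47, 0.21 and −0.41 and none passed the test, while Dnajb9, which rose, held no match to these letters in its window. For Hspa5 the 30 bases round the element are given, as it lies in an exon of the GENCODE annotation, and for Hsp90b1 the bases before its annotated exon.
Hspa5, chr2:34772020-34772049, plus strand: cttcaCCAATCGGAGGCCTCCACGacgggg
Hsp90b1, chr10:86705510-86705694, minus strand: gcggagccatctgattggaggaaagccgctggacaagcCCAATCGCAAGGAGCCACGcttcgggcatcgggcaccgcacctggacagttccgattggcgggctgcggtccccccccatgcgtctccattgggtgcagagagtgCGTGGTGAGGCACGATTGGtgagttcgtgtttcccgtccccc
Dnajc3, chr14:118937682-118937931, plus strand: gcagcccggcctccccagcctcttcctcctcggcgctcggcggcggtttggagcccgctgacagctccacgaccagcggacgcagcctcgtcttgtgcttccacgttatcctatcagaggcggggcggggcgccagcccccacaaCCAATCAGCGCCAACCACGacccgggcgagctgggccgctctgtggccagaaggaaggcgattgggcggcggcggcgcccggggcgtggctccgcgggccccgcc

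Of the 10 mitochondrial members, Hspe1 rose and the others gave no call. Hspe1 (HSP10, chr1:55088132-55091307, plus strand) is the lid of the HSP60 folding chamber that Hspd1 forms. Hspe1 stood at 51.5 and 53.9 CPM in controls and at 82.6, 125 and 81.0 CPM in irradiated replicates 1 to 3, all above the controls with replicate 2 highest (log2 fold change 0.87, 95% interval 0.37 to 1.36, adjusted p = 0.0243). Hspd1 overlapped at 397 and 429 CPM in controls and at 384, 446 and 429 CPM after irradiation (log2 fold change 0.02, 95% interval −0.33 to 0.37). The difference between the fold changes of the pair was not tested. Their exons share 112 bases on opposite strands, whose reads can be told apart only where strand is used. Their transcripts differ in length, 775 bases for Hspe1 and 2198 for Hspd1, and with the length offset the log2 fold changes were 0.03 and −0.12.

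Hspd1 and Hspe1 are transcribed in opposite directions from starts that RefSeq places 215 bases apart, so they share the heat shock element between them. It is printed on the Hspe1 strand with its units in capitals, from −95 to −66 of the Hspe1 start, as 30 bases within an annotated exon of Hspd1.
Hspe1, chr1:55088053-55088082, plus strand: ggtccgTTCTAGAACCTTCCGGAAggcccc

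Hspa9, the mitochondrial HSP70 that pulls proteins through the inner membrane, stood at 867 and 668 CPM in controls and at 793, 636 and 727 CPM after irradiation (log2 fold change −0.10, adjusted p = 0.731). The J-domain partners of Hspa9 in the import motor and matrix stood above both controls in all irradiated libraries without passing the test. These were Dnaja3 (0.47, adjusted p = 0.0923), Dnajc19 (0.47, adjusted p = 0.141) and Dnajc15 (0.54, adjusted p = 0.0656). With the length offset Dnaja3 was at 0.405 and Dnajc15 at 0.544, while Dnajc19 turned to −0.36. Dnajc4, Dnajc11, Dnajc28 and Dnajc30 lay between 0.07 and 0.40 with overlapping groups. Of the 10 members 9 were above 0, with a median of 0.33 that came to 0.00 with the length offset.

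Of the 26 cytosolic J-domain proteins, 21 were tested, 3 rose (Dnajc12, Dnajc9 and Dnajc8) and 1 fell (Dnajc13). Dnajc12 (chr10:63382443-63410576, plus strand) is a co-chaperone of the aromatic amino acid hydroxylases. It stood at 2.63 and 4.13 CPM in controls and at 19.8, 11.1 and 6.26 CPM in irradiated replicates 1 to 3. The irradiated libraries lay above the controls but spread over a wide range, with replicate 1 highest and replicate 3 lowest. The log2 fold change was 1.87 (95% interval 0.76 to 2.99, adjusted p = 0.0278), it was 1.36 without irradiated replicate 1 (adjusted p = 0.0642), and it was 1.44 with the length offset (adjusted p = 0.0869). Both transcripts that carried most of its abundance, of 3025 and 592 bases, code for protein.

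Dnajc9, a co-chaperone of histones H3 and H4, stood at 78.9 and 93.9 CPM in controls and at 161, 147 and 127 CPM after irradiation (log2 fold change 0.75, adjusted p = 0.0173). Dnajc8, which is found with the spliceosome, stood at 102 and 118 CPM in controls and at 183, 180 and 146 CPM (log2 fold change 0.63, adjusted p = 0.0288). In both genes the irradiated libraries lay above the controls, and with the length offset the fold changes were 0.32 (adjusted p = 0.154) and 0.14 (adjusted p = 0.467). Dnajc13, an endosomal J-domain protein (chr9:104151282-104262930, minus strand), stood at 125 and 101 CPM in controls and at 53.0, 58.2 and 67.9 CPM in irradiated replicates 1 to 3. It was lower in all irradiated libraries (log2 fold change −0.92, 95% interval −1.31 to −0.54, adjusted p = 0.0106), and at −0.28 (adjusted p = 0.183) with the length offset.

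Dnaja1, a widely expressed partner of HSP70, stood at 151 and 184 CPM in controls and at 204, 290 and 224 CPM after irradiation (log2 fold change 0.51, adjusted p = 0.0825). Its exons share 608 bases with Smu1 on the opposite strand, whose reads can be told apart only where strand is used. Dnajb2 (0.51, adjusted p = 0.0644) and Dnajb5 (0.52, adjusted p = 0.0586) also stood above both controls in all irradiated libraries and did not pass the test. Dnajc2, which works at the ribosome, was at −0.43 (adjusted p = 0.132) and Dnajc21, of ribosome assembly, at −0.26 (adjusted p = 0.208), with all irradiated libraries below both controls. The other tested members of the class lay between −0.06 and 0.70, apart from Dnajb13 at −1.33 with a wide interval (−3.46 to 0.81), 0.09 to 0.98 CPM in its libraries and 305 exon bases shared with Ucp2. The auxilin Dnajc6 and the synaptic vesicle protein Dnajc5 were expressed at 20.7 to 32.8 CPM and at 163 to 196 CPM with overlapping groups. The members not tested were Dnajb3, Dnajb7, Dnajb8, Dnajc5b and Dnajc5g, of which Dnajb3 and Dnajc5g had 0 reads in all libraries, and a count of 0 allows up to 3 reads.

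The 3 members taken in by their prefix alone are no chaperones of these families. Hspbp1, a nucleotide exchange factor of HSP70, rose from 13.6 and 21.4 CPM in controls to 31.1, 36.2 and 26.6 CPM in irradiated replicates 1 to 3 (log2 fold change 0.84, adjusted p = 0.0375). On the CPM scale the groups did not overlap. With the length offset the log2 fold change was 0.21 (adjusted p = 0.440), and with Salmon's effective length it was 0.17 (adjusted p = 0.597). On the TPM scale Hspbp1 went the other way, at 57.7 and 54.4 TPM in controls and 51.3, 53.7 and 43.0 TPM in irradiated replicates 1 to 3. Hspb11, a subunit of the intraflagellar transport complex, was at 0.79 (adjusted p = 0.0788) and Hspbap1 at 0.25 (adjusted p = 0.498).

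The summed abundance per transcript length was set by a few genes. Hsp90ab1, Hspa8 and Hsp90aa1 together made up 57.4% to 59.0% of the members' TPM in controls and 50.7% to 56.9% after irradiation. All 74 members summed to 11230 and 10870 TPM in controls and to 8545, 8812 and 10240 TPM in irradiated replicates 1 to 3, lower in each irradiated library. The constitutive cytosolic class went from 5830 and 5617 TPM to 3946, 4321 and 5409 TPM, and the inducible class, most of it Hsp90aa1, from 1392 and 1201 TPM to 770, 613 and 868 TPM. The ER class (854 to 1034 TPM) overlapped between the groups, and so did the small class (46.1 TPM in control replicate 2, 56.2 to 66 TPM in the others). The mitochondrial class stood slightly lower at 1204 to 1233 TPM against 1272 and 1292 TPM. TPM carries no scaling between libraries and weights short transcripts more than counts do. On the CPM scale Hspa8 and Hsp90ab1 overlapped between the groups, whereas on the TPM scale Hspa8 was at 2475 and 2168 in controls and at 1461 to 2018 after irradiation, and the 2 scales are therefore given side by side.

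**Figure D3:**
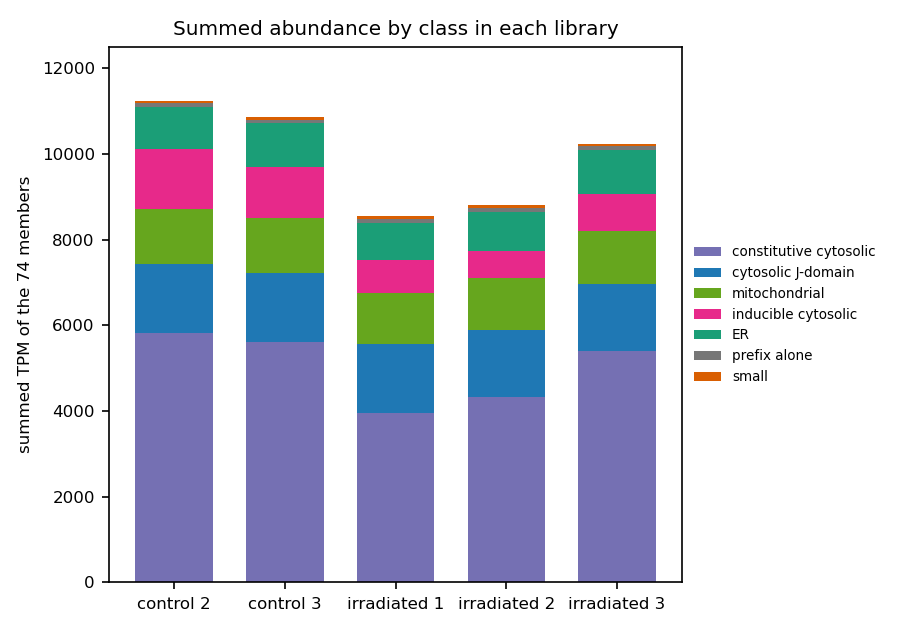
Summed TPM of the 74 members in each library, stacked by class (bars start at 0). The constitutive cytosolic class is the largest part of every bar, and the total runs from 8545 TPM in irradiated replicate 1 to 11230 TPM in control replicate 2.

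The fold changes of the members went with transcript length. Spearman's rho between log2 fold change and length was −0.54 across the 66 tested members and −0.54 across all 14106 genes, a description across genes that share the same 5 libraries. With the length offset rho was 0.30 across the members and 0.02 across all genes. Among the 22 shortest members (611 to 2044 bases) 20 were above 0, with a median of 0.44 and 6 of the 8 members that rose. Among the 22 longest (2803 to 9051 bases) 10 were above 0, with a median of −0.02, 1 member that rose (Dnajb1) and both that fell. With the length offset, 4 members rose, Dnajb1, Dnajb9, Hspa13 and Dnajc16, and 0 fell, beside 2.45% and 3.99% of all genes, and the medians of the shortest and longest members were 0.00 and 0.28. Of the 10 members called without the offset, Dnajb1 and Dnajb9 were called with it too. Without irradiated replicate 2 their edgeR calls were lost (adjusted p = 0.0663 and 0.0608), and that of Dnajb1 also without irradiated replicate 1 (0.0519). The part of transcript length in the other 8 calls was not tested further.

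**Figure D4:**
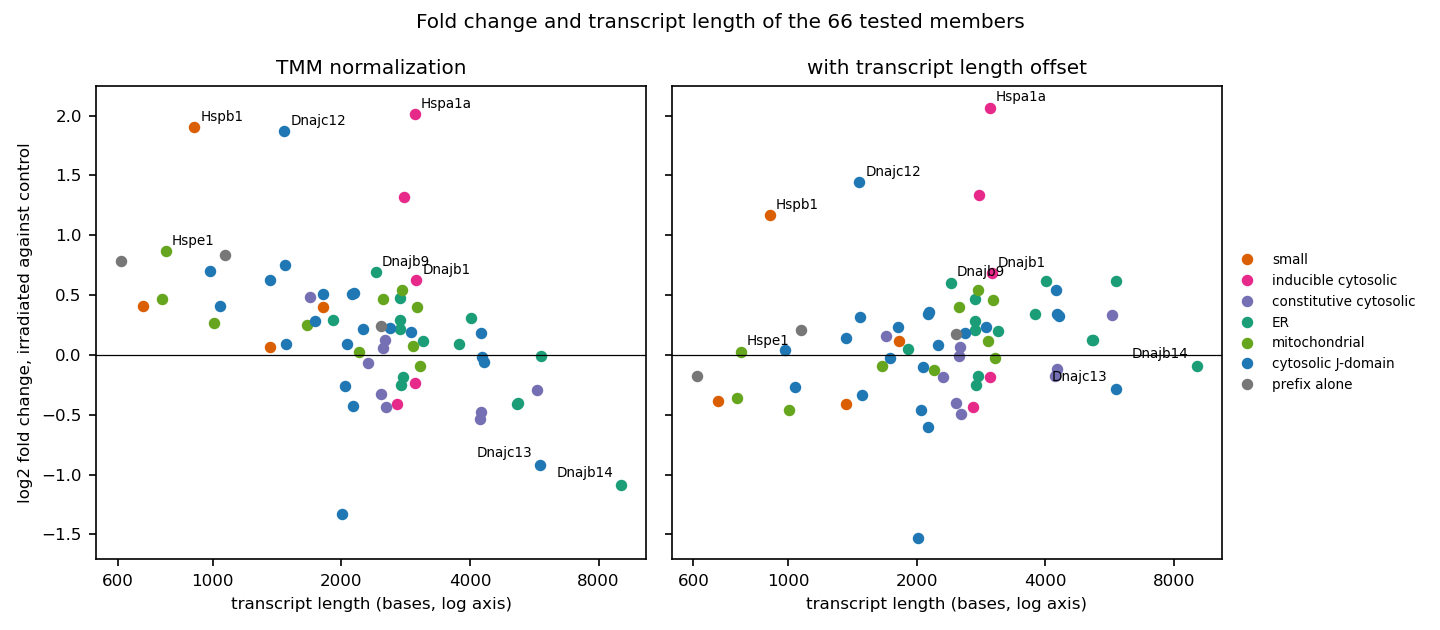
Log2 fold change of irradiated against control cells (vertical axis) against transcript length in bases (log axis) for the 66 tested members, coloured by class, after TMM normalization (left) and with the transcript length offset (right). Hspe1 moves from 0.87 to 0.03 and Dnajb14 from −1.09 to −0.09, whereas Dnajb1 stays at 0.63 and 0.68 and Dnajb9 at 0.70 and 0.60.

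Transcripts annotated as retaining an intron, which are mostly kept in the nucleus or degraded, took a smaller share of the members' abundance after irradiation. Their share of the members' TPM was 5.15% and 3.76% in controls and 2.42%, 1.78% and 1.97% in irradiated replicates 1 to 3. Over all genes the share was 5.0% and 5.43% in controls and 2.32% to 3.10% after irradiation, lower in the irradiated libraries as well. The largest part of the members' share in controls was a short transcript of Hsp90aa1 (487 bases), at 250 and 184 TPM in controls and at 80.4, 29.7 and 67.8 TPM after irradiation. A 507-base transcript of Dnaja2, another partner of HSP70, went from 114 and 68.6 TPM to 57.9, 47.6 and 39.3 TPM, while its main coding transcript overlapped between the groups at 146 to 186 TPM. Hspa4 had its high value in control replicate 2 alone, where the share was 16.8% against 2.66% to 6.01% in the other libraries. These values are Salmon's division of reads among overlapping transcripts, with no test here.

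**Figure D5:**
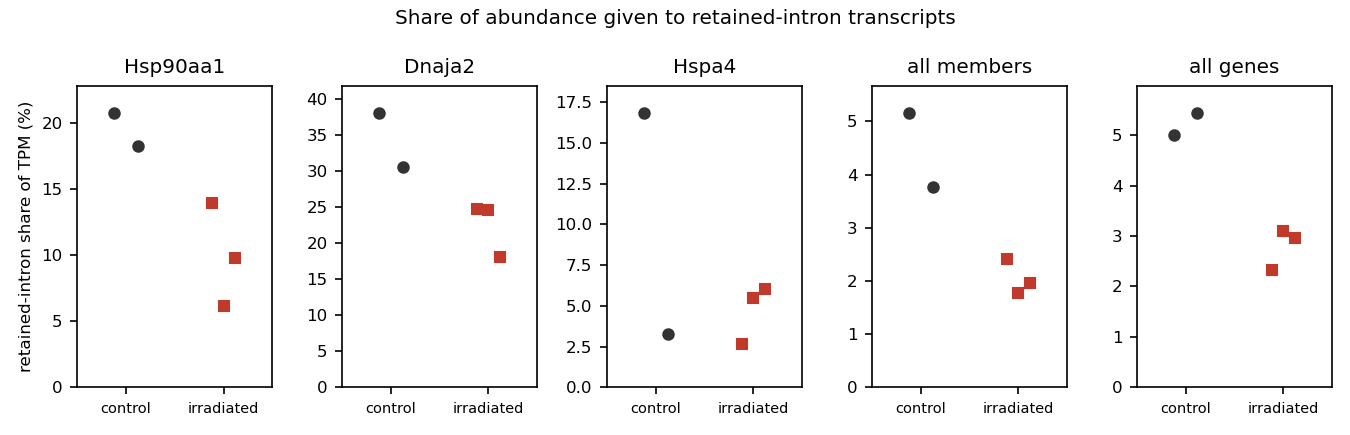
Share of TPM (%, axes from 0) that Salmon gave to transcripts annotated as retaining an intron, for Hsp90aa1, Dnaja2, Hspa4, all 74 members and all genes, with 1 point per library. The irradiated libraries lie below both controls in each panel but that of Hspa4, where control replicate 3 is at 3.25%.

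The partners of these chaperones were read from a list of 49 genes of the folding network. Of these, 46 were tested, 13 rose and 1 fell, beside 12.7% and 13.0% of all genes. Cryaa and Serpinh1 were too low to test, and Cct6a was not analysed here. The median log2 fold change was 0.37, and 0.10 with the length offset, and the median transcript length was 1925 bases beside 2502 over all genes tested. Prefoldin, which hands new actin and tubulin chains to the chaperonin TRiC, had 5 of its 6 subunits called higher, with a median of 0.79 and a median transcript length of 984 bases. Pfdn5 stood at 16.6 and 29.7 CPM in controls and at 69.3, 72.9 and 51.8 CPM after irradiation (log2 fold change 1.48, adjusted p = 0.0107). Pfdn1 (0.99, adjusted p = 0.0145) and Vbp1 (0.71, adjusted p = 0.0179) rose too. With the length offset all 5 prefoldin calls were lost (adjusted p = 0.0508 to 0.908) and the median of the 6 subunits was 0.30. All 7 tested TRiC subunits were above 0 with a median of 0.36, and 0 passed the test.

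Grpel1, the nucleotide exchange factor of the mitochondrial Hspa9, rose from 33.4 and 36.9 CPM to 56.2, 66.7 and 55.0 CPM (log2 fold change 0.75, adjusted p = 0.0147), and it was called with the length offset as well (0.95, adjusted p = 0.0257). Hscb, a mitochondrial J-domain protein of iron-sulphur cluster assembly whose symbol lacks the prefix, rose by a log2 fold change of 1.31 (adjusted p = 0.0172), and that call was lost with the length offset (0.52, adjusted p = 0.221). Hsf1, the heat shock factor itself, was at 0.13 (adjusted p = 0.628).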

How the data were processed

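KP1 bulk RNA was sequenced in 2 control and 3 irradiated libraries, and the single-cell samples were not analysed here. The authors quantified reads on mm10 with Salmon (0.8.2 in the submitters' processing notes) and deposited estimated counts, which are expected counts per transcript with no scaling. The deposited files also hold TPM, and each transcript's length and effective length. Strand handling is not given in the sources used here. The authors' own test was DESeq2 (1.22.2) with independent hypothesis weighting, which was not used here.

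Of 113116 transcripts, 112762 (99.69%) matched GENCODE M21 without version suffix, and estimated counts were summed to 35056 genes and rounded. Library totals were 21185956 to 31036317 reads. edgeR 4.0.16 in R 4.3.3 ran with filterByExpr, TMM and the quasi-likelihood test without a block, and p-values were adjusted after Benjamini and Hochberg. Calls used an adjusted p under 0.05, and the study's log2 fold change of 1.5. The text names 19 fixed chaperones, every member called, every tested member past a log2 fold change of 1.5, and the 3 most abundant, and other members by class. Of 49 partner genes it gives up to 5 called in each direction, and Hsf1 was added after its value was seen, while 1 called partner gene is not reported here. Members and lists were chosen with earlier results of these data known.

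Length is the mean over a gene's transcripts weighted by TPM, and the length offset is a spline with 5 degrees of freedom. It takes out the trend with length over all genes, technical or biological, but not within each set of genes. Alternatives were DESeq2 1.42.0, RLE and upper-quartile scaling, no filter, protein-coding genes alone, Salmon's effective length, the replicate block and each library left out. The tests were also run on simulated counts, scored past both thresholds, so that check does not cover calls by adjusted p alone. Libraries of a group differed by far more than sampling noise. With 2 against 3 libraries, an exact permutation test cannot go below 0.1 and was not used. Promoters came from RefSeq (GRCm38.p6), near-identical transcripts from blastn 2.17.0 (at least 95% identical along 80% of a member's main transcript), and figures from matplotlib 3.10.9. The floor of 3 reads covers counting error only.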

Additional observations from a re-analysis of the deposited data

How the results depend on the processing

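The number of members that rose (8) was 16 without the filter on low counts and 16 with DESeq2, 4 with the length offset, 0 with the replicate block, 0 with the block and the length offset, and 0 to 12 with a library left out (0 without control replicate 2, 12 without control replicate 3). The number that fell (2) was 4 with DESeq2, 0 with the length offset, 1 with the block, 0 with both, and 0 to 4 with a library left out (0 without control replicate 2, 4 without control replicate 3). Past both thresholds, the 2 that rose were 0 with the length offset, 0 with the block, 0 with both, and 0 to 3 with a library left out, and the 0 that fell were 0 to 1 (1 without control replicate 3). Leaving out a control leaves 1 control, which is then assumed to vary like the irradiated libraries. The members lower without control replicate 3 included Dnajb8, which was too low to test in the main fit. Dnajb8 held 20 reads in control replicate 2, the only control left, and 0 to 2 in the other libraries. Dnajb14 (−1.32) and Dnajc13 (−1.05) stayed short of the fold change threshold there, and Dnajc2 was at −0.43 in the main fit. The fall past both thresholds was therefore probably that of Dnajb8, which rests on those 20 reads. The block rests on the numbers 2 and 3 alone and gives irradiated replicate 1 no weight. The labels do not say that a number marks a shared culture. Across the genes tested, the log2 ratios of replicate 2 to replicate 3 in controls and in irradiated cells had a weak negative correlation (−0.196). The crossed pairing, chosen after the data were seen, gave 18 higher and 7 lower. For the blocks, the crossed pairing and the fit without the filter, the share of all genes called is not given here. Those counts therefore cannot be read as particular to the members. The 8 members kept their calls with RLE and upper-quartile scaling, without the filter, with DESeq2 and among protein-coding genes alone.

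Class medians of the log2 fold change are given with the main value in parentheses. The small class (0.41) came to −0.13 with the length offset, −0.046 with the block as well, 0.69 with the effective length, and 0.18 to 0.77 with a library left out. The inducible class (0.63) came to 0.69 with the effective length, 0.69 with the block and length offset, and 0.55 to 0.75 with a library left out. The constitutive class (−0.29) came to −0.12 with the length offset, −0.17 with the block, −0.036 with both, and −0.42 to −0.11 with a library left out. The ER class (0.10) came to 0.16 with upper-quartile scaling, 0.15 without the filter, 0.20 with the length offset, 0.24 with the block as well, and 0.038 to 0.20 with a library left out. The mitochondrial class (0.33) came to 0.002 with the length offset and 0.026 with the block as well (0.30 to 0.42 with a library left out), the cytosolic J-domain class (0.22) to 0.14 and 0.077 (0.21 to 0.32 with a library left out), and all members (0.22) to 0.12 and 0.10 (0.12 to 0.32 with a library left out).

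Of the 66 tested members, 18 changed sign with the length offset, and 0 of these were called without it. Dnajc16 was among the 18, moving from −0.011 to 0.62, and was called with the offset (adjusted p = 0.0456). Among the genes named by the rule, 5 that were not called changed sign under an alternative. Dnajc3 came to 0.12 with the length offset and 0.21 with the block as well. Hsp90ab1 came to −0.006 with the length offset and −0.047 without irradiated replicate 3. Hspa8 came to 0.032 with the block and lay between −0.15 (without irradiated replicate 3) and 0.035 (without control replicate 2) with a library left out. Hspa9 lay between −0.25 without control replicate 3 and 0.13 without control replicate 2. Hspd1 came to −0.12 with the length offset, −0.067 with the block as well, −0.014 without control replicate 2 and −0.024 without irradiated replicate 2. Hspa1a, Hspa1b, Hspa5 and Dnaja1 passed the test with DESeq2 and without the filter. The summed Hspa1a and Hspa1b pair came to 1.20 with the replicate block (adjusted p = 0.0969), where its call was lost. The causes were not tested.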

Other observations

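Some members were too low to test in the main fit. Of these, Dnajb8 held 20 reads in control replicate 2 and 0 to 2 reads in the other libraries. Dnajb7, of germ cells, held 11 and 3 reads in the controls and 0 to 1 after irradiation. Processed pseudogenes near-identical to Dnaja1 held at most 50 reads in any library. Bag3, the partner of Hspb8, stood at 5.36 and 6.57 CPM in controls and at 14.4, 9.32 and 8.89 CPM in irradiated replicates 1 to 3 (log2 fold change 0.87, adjusted p = 0.0627 by edgeR), and Cryab, a small heat shock protein without the prefix, at 0.74 and 0.53 CPM and at 1.91, 1.96 and 1.89 CPM (1.60, adjusted p = 0.0562). Both were picked after their values were seen and did not pass the test.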
